A study of Homo sapiens with 9 samples.

Results

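Long non-coding genes whose symbols end in -AS1 (antisense to the gene named before the hyphen) or -DT (a divergent transcript, read away from that gene's start) were described in U87 glioma cells given either of 2 forms of one miRNA arm. The members were chosen by symbol and by mean signal over all 9 arrays: a probe set with a single symbol ending in -AS1 or -DT and a mean signal of at least 11.3, with the brightest such probe set standing for its gene. Of 903 genes with such symbols on the array, 431 reached the minimum (47.7%), and they made up 431 of 20222 features tested. There were 328 antisense and 103 divergent members. The mean signal chose the members and is given only as a description, whereas the differences between groups were not used in the choice.

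U87 is an established human glioma cell line. The 3 groups, each of 3 biological replicates with 1 array per sample, were cells transfected with a miR-376a*A duplex, cells transfected with a miR-376a*G duplex, and cells transfected with a control miRNA. Every group had 100000 cells transfected with 50 nM of duplex by a lipid reagent and was harvested after 24 h, and no untransfected group was analysed here. All 9 cultures came from this 1 line. Arrays are named below by form and replicate number (A-form array 1, G-form array 1, control array 1). miR-376a* is the 5′ arm of the miR-376a precursor, and the letters stand for the base at a site that adenosine-to-inosine editing changes. Inosine pairs like guanosine, so the G form stands for the edited arm and the A form for the unedited arm.

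Divergent transcripts arise because many mammalian promoters fire in both directions, and much of the RNA made upstream is ended early and degraded by the nuclear exosome. Antisense transcripts run over part of a neighbouring gene on the other strand, and some members of both kinds are stable and spliced. Individual ones have been described as miRNA or protein partners or as regulators of the neighbouring gene, while most have no known function.

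The arms below are RefSeq's mature 5′ arms of the 2 miR-376a genes on chromosome 14 of GRCh38.p14, at chr14:101040788-101040809 and chr14:101040080-101040100 on the plus strand, written 5′ to 3′ with the seed (bases 2 to 8) in capitals. They are shown because the seed is the stretch that chiefly selects a miRNA's targets. The sequence of the transfected duplexes is not given in the sources used here, so the edited base is not marked.
hsa-miR-376a-5p: gUAGAUUCuccuucuaugagua
hsa-miR-376a-2-5p: gGUAGAUUuuccuucuauggu

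The divergent arrangement is shown by RefSeq promoters (GRCh38.p14, written 5′ to 3′ in the direction of the non-coding transcript, 250 bases before its start and 50 after) of 4 members that the results below turn on. Capitals mark the stretch between the start of the non-coding transcript and the start of the gene it is named after, which is read from the other strand. The regions lie at chr17:14069409-14069708 (minus strand, COX10-DT), chr13:45341095-45341394 (plus strand, TPT1-AS1), chr1:101025596-101025895 (plus strand, DPH5-DT) and chr22:45163732-45164031 (minus strand, NUP50-DT). The 2 starts were 46, 162, 62 and 144 bases apart in these pairs.
COX10-DT: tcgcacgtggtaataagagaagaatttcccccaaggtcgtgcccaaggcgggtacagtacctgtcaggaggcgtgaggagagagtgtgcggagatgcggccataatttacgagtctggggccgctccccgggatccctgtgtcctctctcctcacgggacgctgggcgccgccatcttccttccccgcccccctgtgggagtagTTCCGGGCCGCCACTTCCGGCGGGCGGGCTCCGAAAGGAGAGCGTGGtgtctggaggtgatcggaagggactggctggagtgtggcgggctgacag
TPT1-AS1: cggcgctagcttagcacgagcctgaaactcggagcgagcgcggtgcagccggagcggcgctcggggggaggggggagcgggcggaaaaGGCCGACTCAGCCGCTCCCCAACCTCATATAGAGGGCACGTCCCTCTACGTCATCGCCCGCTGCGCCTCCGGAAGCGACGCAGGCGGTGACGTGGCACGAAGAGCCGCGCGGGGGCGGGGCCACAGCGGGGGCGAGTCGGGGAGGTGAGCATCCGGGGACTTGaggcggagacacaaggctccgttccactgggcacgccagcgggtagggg
DPH5-DT: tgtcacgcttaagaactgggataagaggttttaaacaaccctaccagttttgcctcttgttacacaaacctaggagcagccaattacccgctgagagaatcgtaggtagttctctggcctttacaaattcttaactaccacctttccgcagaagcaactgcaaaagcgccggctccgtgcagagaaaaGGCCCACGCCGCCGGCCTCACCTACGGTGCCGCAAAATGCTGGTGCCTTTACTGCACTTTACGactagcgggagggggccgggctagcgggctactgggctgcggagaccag
NUP50-DT: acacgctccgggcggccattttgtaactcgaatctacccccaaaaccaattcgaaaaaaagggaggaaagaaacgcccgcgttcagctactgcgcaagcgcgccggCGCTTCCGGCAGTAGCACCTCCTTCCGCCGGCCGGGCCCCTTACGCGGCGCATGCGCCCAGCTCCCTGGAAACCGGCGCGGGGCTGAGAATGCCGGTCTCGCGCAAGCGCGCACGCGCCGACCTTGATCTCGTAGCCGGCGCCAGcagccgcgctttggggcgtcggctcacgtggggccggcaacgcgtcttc

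The RefSeq promoter table held 333 of the 431 members, and both starts for 298 member and partner pairs, where the partner is the gene named before the hyphen. In 100 of them the starts lay head to head within 1000 bases, at a median distance of 148.0 bases. These were 69 of the 79 divergent pairs with both starts and 31 of the 219 antisense pairs, so the head-to-head layout was not limited to symbols ending in -DT. Gene bodies overlapped in 276 of 323 antisense pairs and in 13 of 103 divergent pairs with a known position. RefSeq lists 428 of the members as lncRNA and 2 as antisense RNA, and 1 was not in the table.

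The mean signals of the members ran from 11.4 to 850.9, with quartiles of 16.8, 26.5 and 49.8, and 49 members reached 100. Just inside the minimum lay BRINP3-DT at 11.37, STK24-AS1 at 11.38 and RPS6KA2-AS1 at 11.40. Just outside it lay TSC22D1-AS1 at 11.29, ERICH1-AS1 at 11.27 and DLX6-AS1 at 11.26. A brightness is specific to its probes, so levels are compared below only between groups within a probe set. All differences are log2 differences on the log2(signal + 16) scale, which understates the change of dim transcripts.

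The arrays shared a scale, with 2% trimmed means of 100.009 to 100.011 and median signals of 18 to 20.4. Control arrays 1 and 2 stood furthest apart, with a lowest correlation of 0.9865 between arrays of one group. Of the U87 markers, VIM (2200.7), FN1 (2048.3), CD44 (1953.4) and TNC (1619.1) were detected well above the minimum (mean signals in parentheses), and the glial genes GFAP (1.59) and S100B (1.14) were near 0. NES had 74.9, CHI3L1 126.1, SOX2 21.2 and OLIG2 19.4. Among 8 markers of other cell types, PTPRC (blood), CDH5 (endothelium) and SYP (neurons) had 4.78, 4.71 and 2.23, and CD3E, EPCAM, KRT18 and RBFOX3 had 10.6 to 15.1. CD3E, a T-cell gene, averaged 17.4 in miR-376a*A cells, 8.43 in miR-376a*G cells and 18.8 in control cells (-0.51 with miR-376a*G, limma, adjusted p = 0.018). The eighth, PECAM1, an endothelial adhesion gene, averaged 82.7 in miR-376a*A cells, 43.6 in miR-376a*G cells and 44.3 in control cells (0.71 with miR-376a*A, adjusted p = 6.11e-05). Their part in the results below was not tested.

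Long non-coding transcripts changed with both forms, in a smaller share than features of the array as a whole. With miR-376a*A, 51 of the 431 members (11.8%) passed against control at an adjusted p of 0.05 (limma, Benjamini-Hochberg over all features), against 20.7% of all features. With miR-376a*G, 75 members (17.4%) passed, against 24.8% of all features. Between the forms, 47 members (10.9%) passed, against 18.2% of all features. RNA was measured in bulk, so fewer cells with a transcript and less of it per cell cannot be told apart. In all, 114 members (26.5%) passed in at least 1 comparison, against 38.0% of all features, and 317 in none.

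The counts moved when single arrays were left out. Without A-form array 1, 2 or 3 the A-form count was 26, 27 or 25. The count between the forms fell to 28 without A-form array 1 or G-form array 2, and to 29 without A-form array 2. No array moved the count of the G form in all by over 1.5 times, though its count of higher members was 31 without G-form array 2.

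Those that passed were more often higher than lower against control. With miR-376a*A, 36 members were higher (background 10.7%) and 15 lower (background 10.0%). With miR-376a*G, 49 were higher (background 11.8%) and 26 lower (background 13.0%). Of those that passed, 70.6% and 65.3% were higher, beside 51.7% and 47.5% of all features that passed. With each array centred on its own median the splits were 26 and 16 with miR-376a*A and 60 and 21 with miR-376a*G. After quantile normalization they were 27 and 16, and 55 and 23. The median difference of the members was 0.08 with miR-376a*A and 0.03 with miR-376a*G, beside 0.04 and -0.00 over all features. The higher count of the A form was 17, 17 or 15 without A-form array 1, 2 or 3, and its lower count was 9 without A-form array 1.

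Between the forms 29 members were higher in miR-376a*A cells (background 10.4%) and 18 lower (background 7.84%), and this split depended on scaling: it was 20 and 26 with each array centred on its own median, and 21 and 20 after quantile normalization. The higher count was 19 without A-form array 1, 18 without A-form array 2 and 19 without G-form array 2. The lower count was 9, 11 and 9 without the same arrays, 10 without G-form array 3 and 31 without control array 1. Of the 103 divergent members 11 (10.7%) passed with miR-376a*A and of the 328 antisense members 40 (12.2%), against 20.7% of all features. With miR-376a*G these were 20 (19.4%) and 55 (16.8%), against 24.8%, and between the forms 13 (12.6%) and 34 (10.4%), against 18.2%.

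Few changes were large on the log2(signal + 16) scale, where a difference of 1 is called 2-fold here. That scale understates the change of dim transcripts, and the members' median signal was 26.5, beside 76.5 over all features. Signals themselves could thus differ by more than these counts show. On that scale, at least 2-fold differences were reached by 1 member with miR-376a*A, against 0.925% of all features. They were reached by 2 with miR-376a*G, against 1.23%, and by 2 between the forms, against 1.02%. Groups did not overlap in signal for 116 members (26.9%) with miR-376a*A, against 36.6% of all features, for 137 (31.8%) with miR-376a*G, against 38.2%, and for 131 (30.4%) between the forms, against 42.1%.

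The share that passed followed the signal of the probe set. Among the 242 members with a mean signal from 11.3 to 30, 4.13% passed with miR-376a*A, against 5.75% of features of like signal. Among the 140 members from 30 to 100 the shares were 19.3% and 21.8%, and among the 49 members at or above 100 they were 28.6% and 30.3%. With miR-376a*G the members' shares were 9.92%, 23.6% and 36.7% from the dimmest to the brightest class, against 7.34%, 23.3% and 37.4% of all features. Between the forms they were 5.37%, 17.1% and 20.4%, against 6.22%, 19.3% and 25.7%. Within each class the members' share was thus closer to the background than over all signals, with 242 of the 431 members in the dimmest class.

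**Figure D1:**
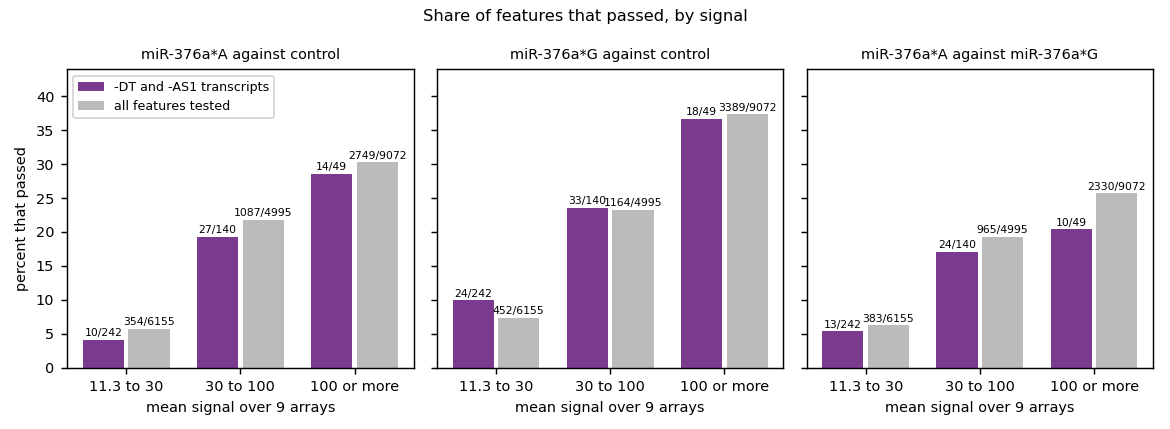
Percent of members and of all features that passed each comparison at an adjusted p of 0.05 (y axis), in 3 classes of mean signal over the 9 arrays (x axis). The share rises with signal for members and features alike, from 4.13% to 28.6% of members with miR-376a*A.

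Of the 431 members, 19 (4.41%) were higher with each form, against 5.50% of all features, and 6 (1.39%) lower, against 4.90%. Both comparisons used the same control arrays. STX17-DT had the largest change of all members. It is the divergent transcript beside STX17, whose product is a SNARE protein of autophagosome fusion with lysosomes. Its signal was 152.9, 48.8 and 88.2 in miR-376a*A cells, 52.7, 56.2 and 80.4 in miR-376a*G cells, and 471.4, 389.4 and 240.4 in control cells. Each array of either form lay below every control array, and the spread within the miR-376a*A and control groups was wide.

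STX17-DT was lower, at -1.82 ± 0.295 (SE) with miR-376a*A (limma, adjusted p = 0.000878) and at -2.24 ± 0.295 with miR-376a*G (adjusted p = 0.000142). Leaving out 1 array at a time gave -2.17 to -1.48 for the A form and -2.51 to -2.04 for the G form. The forms differed by 0.42 (adjusted p = 0.374). STX17 itself was also lower, at -0.36 ± 0.0762 (adjusted p = 0.00547) and -0.49 ± 0.0762 (adjusted p = 0.000546), with 152.3, 183.3 and 165.3 in miR-376a*A cells, 154.2, 148.1 and 150.4 in miR-376a*G cells, and 222.5, 215.9 and 214.7 in control cells. Neither gene's groups overlapped with control.

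TPT1-AS1 starts head to head with TPT1, which encodes the abundant translationally controlled tumour protein. Its signal was 99.9, 82 and 82.8 in miR-376a*A cells, 73.9, 62.4 and 80.1 in miR-376a*G cells, and 173.8, 153.7 and 137.5 in control cells. Both forms lay below all 3 control arrays, with differences of -0.71 ± 0.108 (limma, adjusted p = 0.000518) and -0.96 ± 0.108 (adjusted p = 3.92e-05). The other probe sets for TPT1-AS1 gave 0.03, -0.08 and -0.16 with miR-376a*A, none of which passed, and -0.20, -0.18 and -0.48 with miR-376a*G, of which 1 passed. TPT1 had differences of 0.10 (adjusted p = 0.339) and -0.02 (adjusted p = 0.836).

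MSC-AS1 is antisense to MSC, the gene of the transcription factor musculin. It had 67.2, 73.3 and 79.2 in miR-376a*A cells, 73, 70.4 and 71.4 in miR-376a*G cells, and 151.1, 113.0 and 120.8 in control cells. Again no array of either form reached the control range, and the differences were -0.69 ± 0.1 (limma, adjusted p = 0.000392) and -0.71 ± 0.1 (adjusted p = 0.000236). MSC was lower too, at -0.46 (adjusted p = 0.00315) and -0.41 (adjusted p = 0.00501).

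OIP5-AS1, known as Cyrano, is a conserved long non-coding RNA that pairs with the miRNA miR-7 and promotes its decay. Its signal was 601.6, 611.5 and 624.3 in miR-376a*A cells, 531.4, 567.7 and 593.4 in miR-376a*G cells, and 734.5, 703.9 and 743.0 in control cells. The groups did not overlap with control, although the differences were modest at -0.24 ± 0.0622 (limma, adjusted p = 0.0156) and -0.36 ± 0.0622 (adjusted p = 0.00112). The A-form call ended without A-form array 1 (adjusted p = 0.0589) or A-form array 2 (adjusted p = 0.0607). The other 2 probe sets of OIP5-AS1 gave -0.02 and -0.39 with miR-376a*A and -0.04 and -0.05 with miR-376a*G, and the G-form call ended on the mean of all its probe sets (adjusted p = 0.0747). OIP5, a centromere gene, fell by 0.78 with miR-376a*A (adjusted p = 0.000125), gave 0.25 with miR-376a*G (adjusted p = 0.0912), and differed between the forms by -1.03 (adjusted p = 1.21e-05).

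The remaining 2 shared falls were AGAP2-AS1 and CNTFR-AS1. AGAP2-AS1, beside the gene of an ARF GTPase regulator, had means of 94 ± 9.5 in miR-376a*A cells, 93.7 ± 4.25 in miR-376a*G cells and 154.6 ± 26.4 in control cells (SD, n = 3 each), with differences of -0.62 (limma, adjusted p = 0.00166) and -0.63 (adjusted p = 0.00127). CNTFR-AS1 had 43.4 ± 1.53, 43.9 ± 11.7 and 72.6 ± 18.7 in the same order, with -0.56 in both comparisons. Its A-form call ended without any A-form array or without control array 1 (adjusted p = 0.0551, 0.0681, 0.0559 and 0.0656), and its G-form call ended without G-form array 1 (0.0759) or control array 1 (0.0548), all by limma.

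Of the 19 shared rises, LOXL1-AS1 had the smallest p with miR-376a*A. It is antisense to LOXL1, which encodes an enzyme that cross-links elastin. Its signal was 244.9, 247.7 and 255.4 in miR-376a*A cells, 192.3, 230.4 and 249.6 in miR-376a*G cells, and 160.2, 131.9 and 136.5 in control cells. All 6 arrays of the forms lay above the control arrays, and the differences were 0.74 ± 0.0971 (limma, adjusted p = 0.000167) and 0.59 ± 0.0971 (adjusted p = 0.000738). LOXL1 was higher by 0.46 with miR-376a*A (adjusted p = 0.0032), and its difference with miR-376a*G was -0.18 (adjusted p = 0.169).

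DHRS4-AS1, antisense to the gene of a short-chain dehydrogenase, was likewise higher in all 6 arrays. It had 45.2, 63.3 and 55.5 in miR-376a*A cells, 54.2, 55.3 and 45.9 in miR-376a*G cells, and 25.6, 31.1 and 30.8 in control cells. The differences were 0.64 ± 0.11 (limma, adjusted p = 0.00135) and 0.59 ± 0.11 (adjusted p = 0.00194).

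PCBP1-AS1, NUTM2A-AS1, LYPLAL1-AS1 and NEK2-DT rose with both forms by 0.35 to 0.50, and DNAAF3-AS1 and ST20-AS1 rose with miR-376a*A, by 0.62 and 0.57. NEK2 encodes a mitotic kinase, and it rose beside NEK2-DT, by 0.75 with miR-376a*A (limma, adjusted p = 0.000245) and 0.97 with miR-376a*G (adjusted p = 2.43e-05). For PCBP1-AS1 the mean of its probe sets did not pass (0.20, adjusted p = 0.131 with miR-376a*A and 0.13, adjusted p = 0.314 with miR-376a*G).

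**Figure D2:**
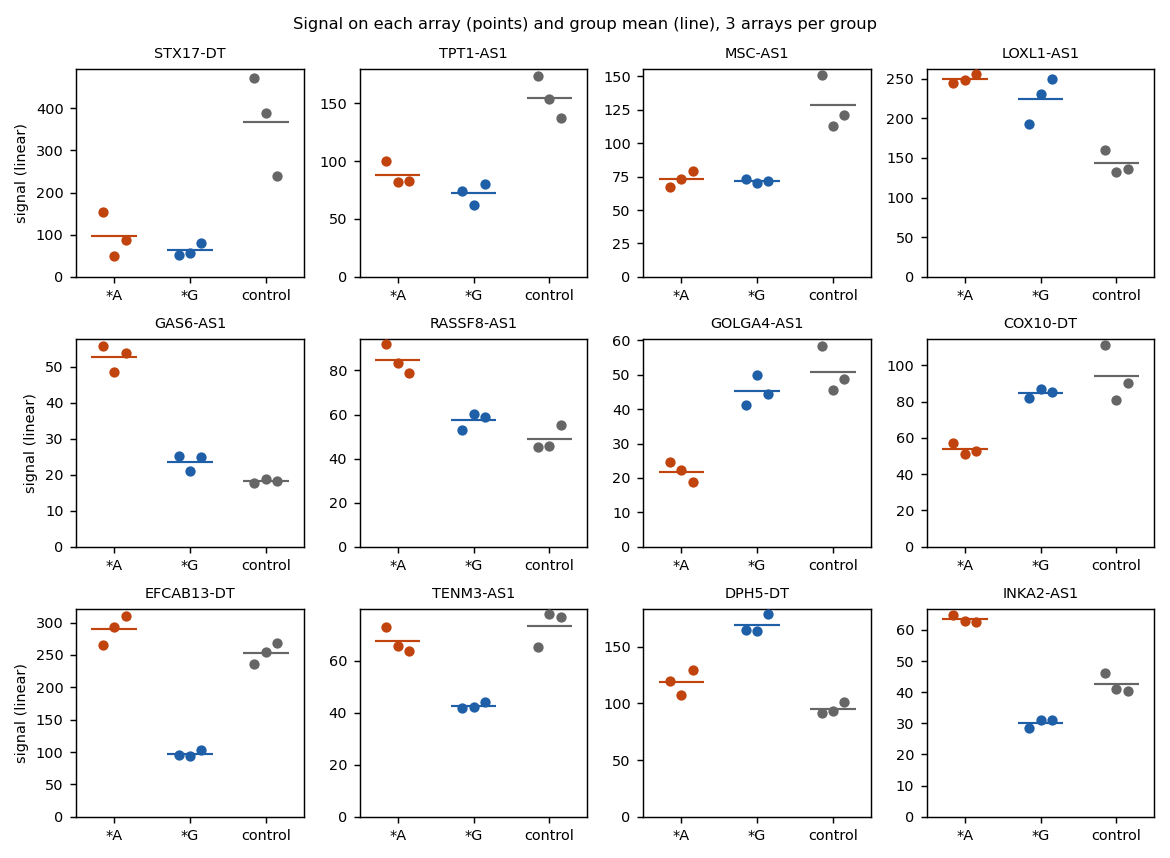
Signal in arbitrary units on each of the 9 arrays (points) with group means (lines) for 12 members, with miR-376a*A (*A), miR-376a*G (*G) and control side by side. Each panel has its own axis because levels are not comparable between probe sets. STX17-DT lies lower in every miR-376a*A and miR-376a*G array than in every control array, and EFCAB13-DT lies lower in the miR-376a*G arrays alone.

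With miR-376a*A, 16 members passed as higher (3.71%, against 4.81% of all features) and 9 as lower (2.09%, against 4.82%) that did not pass with miR-376a*G. A difference between the forms was tested directly, and only members that passed that test are called different here. GAS6-AS1 is antisense to GAS6, the gene of a ligand for the TAM receptor kinases. Its signal was 55.7, 48.4 and 53.8 in miR-376a*A cells, 25.1, 21 and 24.8 in miR-376a*G cells, and 17.7, 18.9 and 18.3 in control cells. The A-form arrays stood above the other 6, which also did not overlap with each other.

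GAS6-AS1 was higher by 1.00 ± 0.0906 with miR-376a*A (limma, adjusted p = 8.45e-06), with the smallest p of all members in that comparison. The difference with miR-376a*G was 0.21 (adjusted p = 0.116), and that between the forms was 0.79 ± 0.0906 (adjusted p = 5.42e-05). GAS6 gave 0.05 with miR-376a*A (adjusted p = 0.754).

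RASSF8-AS1, antisense to a gene of the RAS-association domain family, had 91.8, 83.6 and 79 in miR-376a*A cells, 52.9, 60.4 and 59.1 in miR-376a*G cells, and 45.2, 45.8 and 55.1 in control cells. The A-form arrays were highest without overlap, at 0.64 ± 0.0921 against control (limma, adjusted p = 0.000354) and 0.46 against miR-376a*G (adjusted p = 0.00402). Its other probe set gave 0.48 with miR-376a*A (adjusted p = 0.074) and passed as higher with miR-376a*G, at 0.55 (adjusted p = 0.0361). That probe set gave -0.08 between the forms (adjusted p = 0.819). On the mean of its probe sets the difference of RASSF8-AS1 between the forms was 0.19 and did not pass (adjusted p = 0.241). RASSF8 gave -0.27 with miR-376a*A (adjusted p = 0.0587) and -0.10 between the forms (adjusted p = 0.524).

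GOLGA4-AS1 is antisense to GOLGA4, which encodes a tethering protein of the trans-Golgi. It had 24.6, 22.2 and 18.7 in miR-376a*A cells, 41.3, 50 and 44.4 in miR-376a*G cells, and 58.3, 45.5 and 48.7 in control cells. Only the A-form arrays stood apart, lower, at -0.82 ± 0.104 against control (limma, adjusted p = 0.000131) and -0.70 against miR-376a*G (adjusted p = 0.000485). GOLGA4 was lower with both forms, at -0.34 (adjusted p = 0.0256) and -0.49 (adjusted p = 0.00268), and gave 0.15 between them (adjusted p = 0.325).

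COX10-DT, whose promoter is printed above, lies beside COX10, the gene of a heme A assembly enzyme of cytochrome c oxidase. Its signal was 57.4, 51.3 and 53 in miR-376a*A cells, 81.9, 86.8 and 85.1 in miR-376a*G cells, and 111.3, 80.9 and 90.2 in control cells. The A-form arrays were lowest, at -0.65 ± 0.0994 against control (limma, adjusted p = 0.000588) and -0.53 against miR-376a*G (adjusted p = 0.00258). COX10 gave 0.02 with miR-376a*A (adjusted p = 0.912) and was lower with miR-376a*G, at -0.30 (adjusted p = 0.0473). Between the forms its difference was thus opposite to that of COX10-DT, at 0.32 (adjusted p = 0.0451). The starts of this pair are 46 bases apart.

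WAC-AS1, RBM33-DT and MAP3K2-DT showed the same pattern. Against control they were lower with miR-376a*A, at -0.36, -0.50 and -0.56, and against miR-376a*G at -0.39, -0.58 and -0.47. For MAP3K2-DT the difference between the forms did not pass without A-form array 2 (limma, adjusted p = 0.0571), G-form array 2 (0.0719) or G-form array 3 (0.0569). MAP3K2, a kinase gene of the MAP kinase cascades, rose, with 424.5, 448.9 and 428.2 in miR-376a*A cells against 250.1, 199.3 and 170.2 in control cells, a difference of 1.03 ± 0.106 (adjusted p = 2.40e-05). It also rose with miR-376a*G, by 0.77 (adjusted p = 0.000207), where MAP3K2-DT gave -0.09 (adjusted p = 0.604), and MAP3K2 gave 0.26 between the forms (adjusted p = 0.113).

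With miR-376a*G, 30 members passed as higher (6.96%, against 5.96% of all features) and 19 as lower (4.41%, against 7.69%) that did not pass with miR-376a*A. EFCAB13-DT had the smallest p of all members in either comparison with control. Its neighbour EFCAB13 encodes an EF-hand protein. The signal was 265.3, 293.5 and 309.8 in miR-376a*A cells, 95.8, 93.9 and 102.7 in miR-376a*G cells, and 235.6, 254.7 and 268.6 in control cells. The G-form arrays were far below the other 6, and the other groups overlapped.

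EFCAB13-DT was lower, at -1.24 ± 0.0801 with miR-376a*G (limma, adjusted p = 3.65e-07). With miR-376a*A its difference was 0.18 (adjusted p = 0.128), and between the forms it was 1.43 ± 0.0801 (adjusted p = 1.22e-07). EFCAB13 gave -0.11 with miR-376a*G (adjusted p = 0.464).

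TENM3-AS1, antisense to the gene of teneurin-3, a neuronal adhesion protein, had 73.1, 65.5 and 63.7 in miR-376a*A cells, 41.7, 42.2 and 44.2 in miR-376a*G cells, and 65.3, 78 and 76.8 in control cells. It was lower, at -0.60 ± 0.0877 with miR-376a*G (limma, adjusted p = 0.000304), and 0.51 higher in miR-376a*A than in miR-376a*G cells (adjusted p = 0.00146), and TENM3 gave -0.14 with miR-376a*G (adjusted p = 0.378). RB1-DT, beside the RB1 tumour suppressor gene, had 29.5, 47 and 44.9 in miR-376a*A cells, 15.5, 3.52 and 10.2 in miR-376a*G cells, and 20.4, 34.6 and 30.2 in control cells. It was lower, at -0.80 ± 0.184 with miR-376a*G (adjusted p = 0.00672), and RB1 was lower, at -0.43 (adjusted p = 0.0026). Both TENM3-AS1 and RB1-DT had their G-form arrays below the other 6 without overlap. The miR-376a*G mean of RB1-DT was under the minimum mean signal for the choice of members, so its level there was dim.

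FZD10-AS1, ADORA2A-AS1, ZNF295-AS1 and LY6S-AS1 also fell with miR-376a*G, with differences of -0.91, -0.60, -0.60 and -0.47. Among these, FZD10-AS1 had 2.94, 3.15 and 5.15 in miR-376a*G cells, which is under the minimum mean signal for the choice of members, against 23.8, 28.9 and 12.5 in control cells. ADORA2A-AS1 was similarly dim, at 6.86, 3.51 and 2.57 in miR-376a*G cells against 11.8, 15.7 and 16.6 in control cells.

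DPH5-DT led the rises with miR-376a*G. Its neighbour DPH5 encodes a methyltransferase of diphthamide synthesis. The signal was 119.6, 107.4 and 129.5 in miR-376a*A cells, 164.9, 163.6 and 178.6 in miR-376a*G cells, and 91.6, 93.2 and 101.1 in control cells, so that all 3 groups were apart. The difference with miR-376a*G was 0.73 ± 0.0826 (limma, adjusted p = 3.93e-05), a second probe set gave 0.69 (adjusted p = 0.0021), and another gave 0.05 (adjusted p = 0.823). With miR-376a*A it was 0.27 (adjusted p = 0.0331), which ended without A-form array 1 (0.0904), A-form array 3 (0.144), G-form array 2 (0.0507) or control array 2 (0.059). DPH5 was 0.21 higher with miR-376a*G (adjusted p = 0.0346).

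PAPOLA-DT, ITGB1-DT, KRT10-AS1, RNASEH1-DT, EIF2AK3-DT, SLC16A1-AS1, ATP2A1-AS1 and UBL7-DT rose with miR-376a*G by 0.39 to 0.76. ITGB1-DT, beside the gene of integrin beta-1, had 309.5, 290.7 and 292.5 in miR-376a*G cells against 146.8, 223.6 and 186.8 in control cells. Its difference was 0.65 ± 0.114 (limma, adjusted p = 0.00116), while ITGB1 fell by 0.36 ± 0.0579 (adjusted p = 0.000701). The transcript and its partner thus changed in opposite directions.

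With miR-376a*A the differences of PAPOLA-DT (0.44), KRT10-AS1 (0.42), EIF2AK3-DT (0.38), SLC16A1-AS1 (0.36) and UBL7-DT (0.25) passed as well. The A-form calls of these 5 ended when some single arrays were left out. Those of PAPOLA-DT and EIF2AK3-DT also ended with median centring (limma, adjusted p = 0.0562 and 0.051) and quantile normalization (0.0786 and 0.063). Leaving out 1 array moved 2 of the values by over 1.5 times: KRT10-AS1 was 0.26 without control array 1, and PAPOLA-DT was 0.29 without control array 2.

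INKA2-AS1 was the 1 member (0.232%) that passed as higher with miR-376a*A and lower with miR-376a*G, against 0.405% of all features, and 0 members passed the other way round, against 0.292%. It is antisense to INKA2, the gene of a PAK4 kinase inhibitor. Its signal was 64.8, 62.9 and 62.4 in miR-376a*A cells, 28.5, 31 and 31.2 in miR-376a*G cells, and 46.1, 40.9 and 40.5 in control cells, with no overlap between any groups. The difference was 0.44 ± 0.0825 with miR-376a*A (limma, adjusted p = 0.00237), -0.34 ± 0.0825 with miR-376a*G (adjusted p = 0.00936) and 0.78 ± 0.0825 between the forms (adjusted p = 2.80e-05).

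NUP50-DT and FAM111A-DT differed between the forms as well. NUP50-DT, whose promoter is printed above, lies beside NUP50, the gene of a nuclear pore protein. It had 89.5, 105.6 and 104.2 in miR-376a*A cells, 43.6, 56.4 and 58.8 in miR-376a*G cells, and 66.3, 78.4 and 100.8 in control cells. The forms differed by 0.75 ± 0.129 (limma, adjusted p = 0.00135), and the fall of -0.50 with miR-376a*G (adjusted p = 0.0136) ended without G-form array 1 (0.0623) or control array 3 (0.0573).

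NUP50 had 230.0, 219.5 and 202.6 in miR-376a*A cells, 411.6, 423.0 and 459.3 in miR-376a*G cells, and 548.4, 523.8 and 524.6 in control cells. It was lower, at -1.23 with miR-376a*A (limma, adjusted p = 1.41e-07) and at -0.29 with miR-376a*G (adjusted p = 0.00872), and differed between the forms at -0.94 (adjusted p = 1.33e-06). Between the forms, the transcript and its partner were therefore opposite.

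FAM111A-DT, beside the gene of a replication-linked protease, had 67.8, 77.5 and 77.5 in miR-376a*A cells, 112.9, 119.6 and 121.2 in miR-376a*G cells, and 84.4, 84.8 and 89.1 in control cells. The forms differed by -0.57 ± 0.0778 (limma, adjusted p = 0.000232), and its rise with miR-376a*G was 0.39 (adjusted p = 0.00282). A second probe set gave -0.30 between the forms (adjusted p = 0.0451), and FAM111A gave -0.15 (adjusted p = 0.159).

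The other named differences between the forms ranged from 0.44 to 0.54 for CTBP1-DT, ANXA2R-AS1, PRDX6-AS1 and MARCHF10-DT, higher in miR-376a*A than in miR-376a*G cells, and from -0.51 to -0.37 for PAX8-AS1, GARS1-DT, PITPNA-AS1, ASB16-AS1 and UBAC2-AS1, lower in miR-376a*A. GARS1-DT did not hold: 5 further probe sets gave -0.04 to 0.32 between the forms, and their mean with it gave 0.08 (limma, adjusted p = 0.466). For PAX8-AS1 the mean of 2 probe sets gave -0.22 (adjusted p = 0.0907).

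Among these 9 the calls of ASB16-AS1, PITPNA-AS1 and UBAC2-AS1 were lost when some single arrays were left out. ASB16-AS1 ended without A-form array 1 (limma, adjusted p = 0.0528), A-form array 3 (0.0556) or G-form array 2 (0.0666). PITPNA-AS1 ended without any G-form array or without A-form array 1 or 2 (0.0514 to 0.0872). UBAC2-AS1 ended without A-form array 1 (0.0674), A-form array 3 (0.0659) or G-form array 2 (0.0994).

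**Figure D3:**
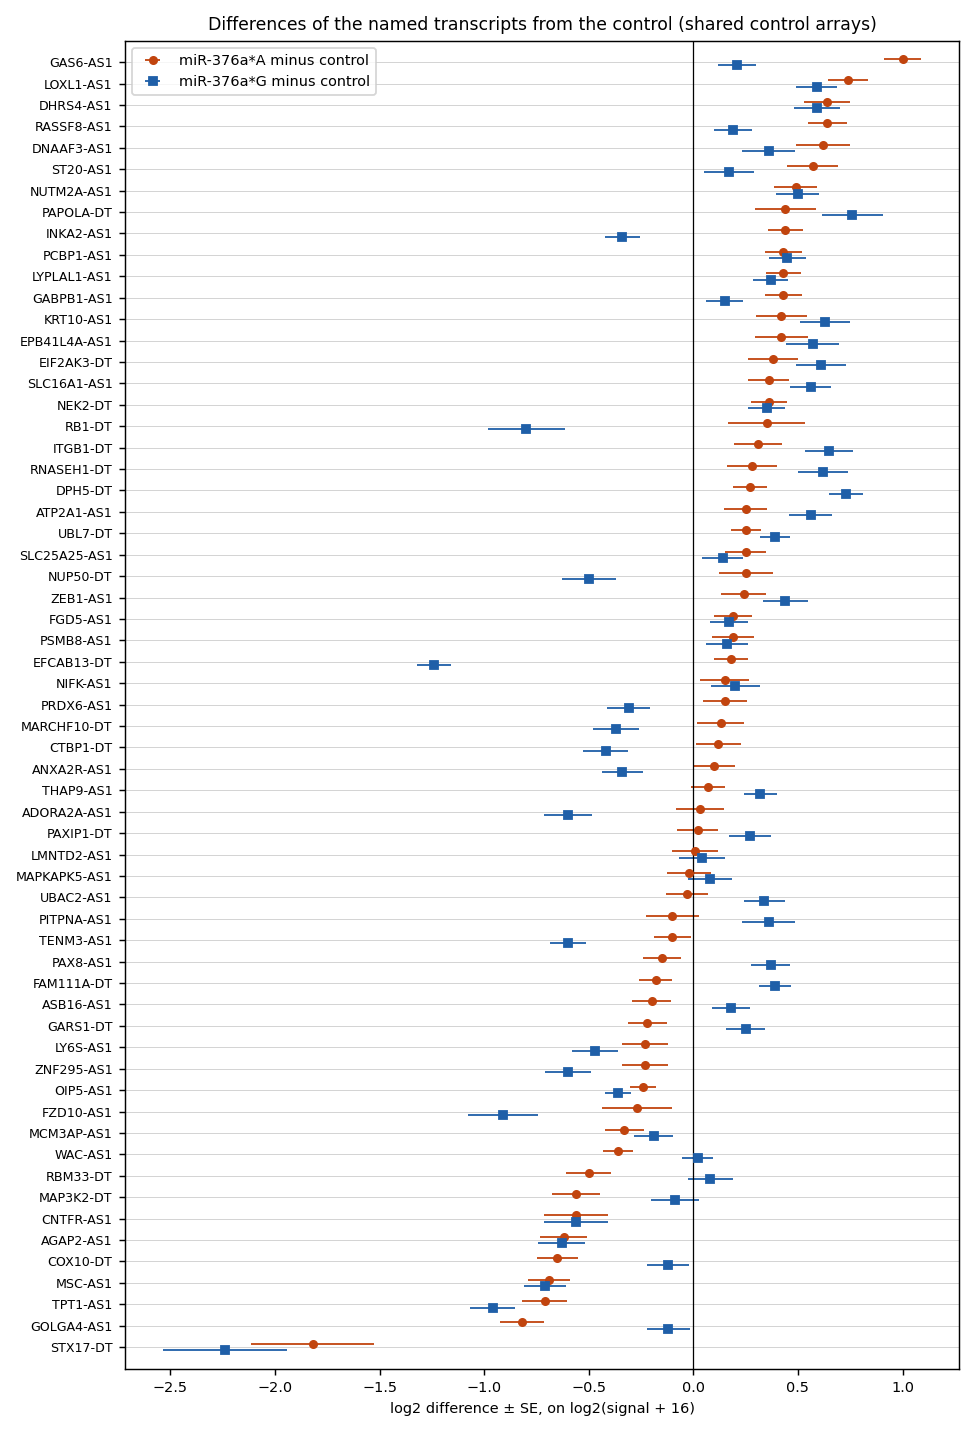
Log2 difference from control on the log2(signal + 16) scale (x axis) of the named members, 1 per line, for the A form (circles) and the G form (squares), with bars for the SE of the fit. The same 3 control arrays serve both forms. STX17-DT lies furthest left with both forms, EFCAB13-DT lies at -1.24 with miR-376a*G and 0.18 with miR-376a*A, and INKA2-AS1 has the forms on opposite sides of 0.

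Members were set beside the genes they are named after. Gene bodies overlap in 289 of 426 pairs with a known position, and whether each probe set reads the member's own strand was not checked. Of 397 partners on the array, 349 were tested as pairs. Of these, 99 (28.4%) passed with miR-376a*A, against 20.7% of all features, 119 (34.1%) with miR-376a*G, against 24.8%, and 82 (23.5%) between the forms, against 18.2%. The median signal of the partners was 214.4, beside 76.5 over all features. Of features with a mean signal of 100 or more, 30.3%, 37.4% and 25.7% passed in the same order. The partners also included dimmer genes, such as A1BG at 36.1 and ADAD2 at 15.3. Their shares were not compared with those of features of like signal. The G-form count of partners was 79 without G-form array 2. Of the 42 members that passed with miR-376a*A and had a tested partner, 11 had a partner that passed in the same direction, 5 a partner that passed in the opposite direction and 26 a partner that did not pass.

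With miR-376a*G these were 14, 10 and 34 of 58 members, and between the forms 7, 4 and 25 of 36. Over all 349 pairs the 2 differences had Pearson's r of 0.05 with miR-376a*A, 0.01 with miR-376a*G and 0.02 between the forms, which describes pairs from the same 9 arrays. The opposite pairs of the A form were EIF2AK3-DT, GABPB1-AS1, MAP3K2-DT, PCBP1-AS1 and UBL7-DT with their partners. EIF2AK3, the gene of the stress kinase PERK, fell by 0.46 with miR-376a*A (limma, adjusted p = 0.0107), while EIF2AK3-DT gave 0.38 (adjusted p = 0.0424). That call of EIF2AK3-DT ended under both other scalings and without any array other than control array 1, so the opposite pair depends on these choices. The A-form call of UBL7-DT ended without A-form array 1, 2 or 3 (adjusted p = 0.0748, 0.0681 and 0.0854). That of PCBP1-AS1 ended on the mean of its probe sets (0.20, adjusted p = 0.131), so these 2 opposite pairs depend on such choices too.

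PTPRG-AS1 showed the largest partner change among opposite pairs, in this case with miR-376a*G. PTPRG, the gene of a receptor tyrosine phosphatase, had 184.1, 175.2 and 168.2 in miR-376a*A cells, 42.3, 47.8 and 43.2 in miR-376a*G cells, and 209.0, 157.3 and 154.7 in control cells. PTPRG fell by 1.64 ± 0.104 with miR-376a*G (limma, adjusted p = 3.07e-07), and PTPRG-AS1 rose by 0.50 ± 0.125 (adjusted p = 0.0113). PTPRG-AS1 had 22.8, 21.6 and 21.5 in miR-376a*G cells against 13.5, 6.9 and 12.7 in control cells. Its control mean was under the minimum mean signal for the choice of members, so the rise of PTPRG-AS1 started from a dim level. This pair was chosen after its values were seen, since PTPRG-AS1 is not among the members with the smallest p.

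Of the 89 head-to-head pairs with both genes tested, 12 members passed with miR-376a*A, with 2 partners in the same direction and 3 opposite. With miR-376a*G, 19 passed, with 5 and 3, and between the forms 11, with 2 and 2. Over all features 20.7%, 24.8% and 18.2% passed in these comparisons. Of the 89 partners, 24 (27%), 36 (40.4%) and 16 (18%) passed in the same order. The difference from other pairs was not tested.

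**Figure D4:**
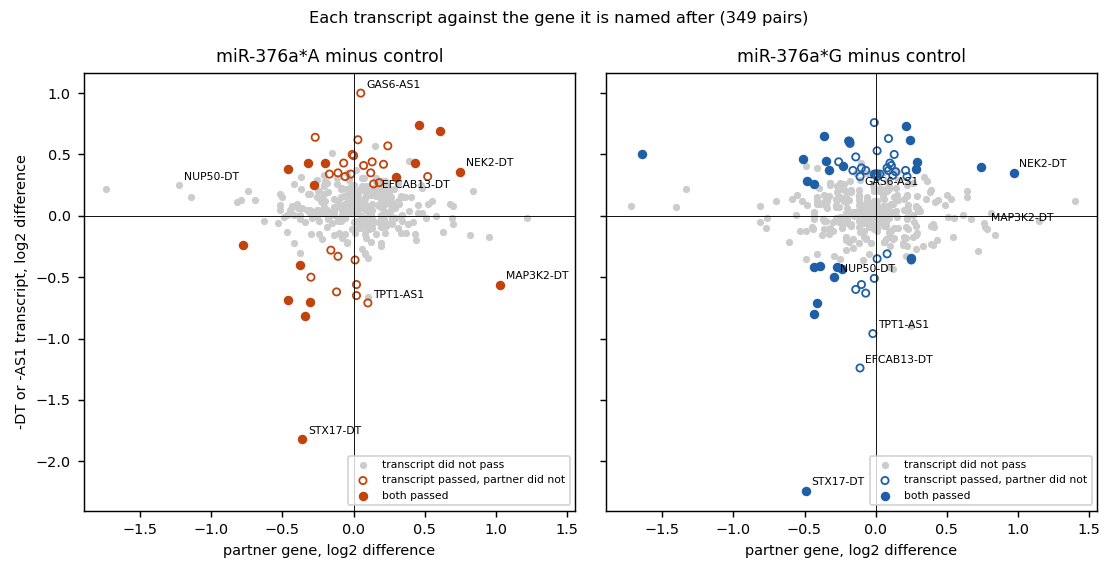
Log2 difference of each member (y axis) against that of its partner gene (x axis) for the 349 pairs tested, with miR-376a*A against control on the left and miR-376a*G against control on the right, on the log2(signal + 16) scale. Filled points mark pairs in which both passed, and open circles members whose partner did not pass. The points form no diagonal, with Pearson's r of 0.05 on the left and 0.01 on the right.

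Of 14 members with a described role that reached the signal minimum, 5 (35.7%) passed with miR-376a*A, against 20.7% of all features. With miR-376a*G 5 (35.7%) passed, against 24.8%, and between the forms 2 (14.3%), against 18.2%. Their median signal was 143.4, and of features at or above 100, 30.3%, 37.4% and 25.7% passed in the same order. OIP5-AS1 and MCM3AP-AS1 fell and GABPB1-AS1, LOXL1-AS1 and EPB41L4A-AS1 rose with miR-376a*A. GABPB1-AS1, whose partner encodes a subunit of the GABP transcription factor, rose by 0.43 ± 0.0879 (limma, adjusted p = 0.0041), while GABPB1 fell by 0.32 (adjusted p = 0.00686). The 4 other probe sets of GABPB1-AS1 gave 0.73, 0.64, 0.28 and 0.60 with miR-376a*A and 0.77, 0.32, 0.15 and 0.46 with miR-376a*G. With miR-376a*G the values 0.77, 0.32 and 0.46 passed (limma, adjusted p = 0.0149, 0.0469 and 0.00123). Between the forms GABPB1-AS1 gave 0.28, and none of the other probe sets passed. That call ended on the mean of the probe sets (0.17, adjusted p = 0.181) and without any single A-form or G-form array.

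EPB41L4A-AS1, host of a small nucleolar RNA, gave 0.42 with miR-376a*A (limma, adjusted p = 0.0322) and 0.57 with miR-376a*G (adjusted p = 0.00548). Its other probe set gave 0.12 (adjusted p = 0.428) and 0.71 (adjusted p = 0.000241) in the same order, and -0.59 between the forms (adjusted p = 0.00128). On the mean of the probe sets the A-form call ended (0.27, adjusted p = 0.0543). The A-form value of 0.42 became 0.25 without control array 1, and its call ended without A-form array 1 (0.078), 2 (0.068) or 3 (0.101). MCM3AP-AS1, at -0.33 (adjusted p = 0.0239), ended in the same way (0.0611, 0.0567 and 0.0803) and without control array 1 (0.067), and the mean of its probe sets was -0.11 (adjusted p = 0.386). With miR-376a*G, ZEB1-AS1, which starts beside a transcription factor gene of epithelial-mesenchymal transition, rose by 0.44 (adjusted p = 0.0092) and THAP9-AS1 by 0.32 (adjusted p = 0.0109), whose call ended without G-form array 3 (0.0609).

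Other long non-coding genes were counted for comparison, from symbols for intergenic RNAs, snoRNA and miRNA hosts and a named list. Of 309, 37 (12%) passed with miR-376a*A (32 higher, 5 lower), against 20.7% of all features. With miR-376a*G 44 (14.2%) passed (32 higher, 12 lower), against 24.8%, and between the forms 41 (13.3%) did (31 higher, 10 lower), against 18.2%. The G-form count was 25 without G-form array 2, and the count between the forms was 24 without A-form array 2, 23 without G-form array 2 and 24 without G-form array 3. As examples chosen after their values were seen, MALAT1, an abundant nuclear RNA, rose by 0.73 and 0.41, and TUG1 fell by 0.45 with miR-376a*G.

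Genes of RNA degradation and early termination, some of which act on divergent transcripts, changed in both directions. Of 29 tested, 10 (34.5%) passed with miR-376a*A (5 higher, 5 lower), against 20.7% of all features, and 11 (37.9%) with miR-376a*G (8 higher, 3 lower), against 24.8%. Their median signal was 267.8, and of features at or above 100, 30.3% and 37.4% passed in these comparisons. Between the forms 6 (20.7%) passed, each lower in miR-376a*A cells, a share near the 18.2% of all features. The last count was 3 without A-form array 1, G-form array 2 or G-form array 3, and 15 without control array 1. C1D, an exosome cofactor gene, rose by 0.76 with miR-376a*A (limma, adjusted p = 2.76e-05) and 1.00 with miR-376a*G (adjusted p = 2.11e-06).

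With miR-376a*A, the exosome subunit gene EXOSC6 fell by 0.87, CPSF3, the gene of the 3′ end cleavage nuclease, fell by 0.45, and PABPN1, a nuclear poly(A)-binding protein gene, rose by 0.44. With miR-376a*G, the exosome subunit genes EXOSC8 and EXOSC2 rose by 0.66 and 0.42, and XRN2, the nuclear 5′ to 3′ exonuclease gene, fell by 0.54. Between the forms EXOSC6, ZCCHC8, EXOSC2 and CPSF3 were lower in miR-376a*A cells, at -1.10, -0.45, -0.34 and -0.41. The part of these changes in the members' values was not tested.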

How the data were processed

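RNA of 9 U87 cultures was measured on Affymetrix human expression arrays. Biotin-ULS was used to label 1 µg of RNA, per the labels' protocols. The authors deposited 1 linear signal intensity per probe set and array. The submitters' processing notes name GCOS 1.4.0.036. How the signals were computed and scaled is not stated in these sources. No counts lie behind the values, so the number of arrays limits the precision.

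Of 54675 probe sets, 62 controls were left out. Symbols came from a platform annotation in which 41091 probe sets had 1 symbol, 1801 several and 11721 none, and no symbol was changed by RefSeq (GRCh38.p14). Whether each probe set matches the strand of its symbol was not checked. Probe sets with a mean signal of 11.3 or more (33004) were reduced to the brightest per single-symbol gene, and the others were kept as they were, which gave 20222 features.

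Signals were analysed as log2(signal + 16) with limma 3.58.1 in R 4.3.3 (lmFit on all 9 arrays, contrasts, eBayes with trend), two-sided, with Benjamini-Hochberg adjustment over all features. The code was tested on simulated data. The text names the 12 members with the smallest p per direction and comparison, STX17-DT, members with a described role, partners of the members described, and members nearest the minimum. Members, lists and comparisons were chosen with earlier results of these data known. Replicate numbers were not used to pair samples in the main fit. Correlations of same-numbered deviations ran from -0.106 to 0.071, which cannot show whether the cultures were set up in numbered batches. Groups came from the labels. Alternatives varied the scaling, filter, offset, variance model, probe-set summary, samples fitted and replicate block.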

Additional observations from a re-analysis of the deposited data

Results flagged for a closer look

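INKA2-AS1 changed in opposite directions with the 2 forms, and the test of the difference itself gave a value 0.78 higher in miR-376a*A than in miR-376a*G cells (limma, adjusted p = 2.80e-05).

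Of the 472 antisense and divergent genes below the signal minimum, 11 passed with miR-376a*A, 11 with miR-376a*G and 8 between the forms when no filter was applied. In the main fit, 5.75%, 7.34% and 6.22% of features with a mean signal from 11.3 to 30 passed in these comparisons. The share of all features below the minimum that passed is not given here, so these counts are not read as a result about such genes. In 4 of the comparisons with control a rise took the mean of the form above the minimum. CFAP65-AS1 had 15.1, 11.6 and 14.1 in miR-376a*A cells against 3.45, 4.04 and 8.11 in control cells, a difference of 0.49 (limma, adjusted p = 0.0131). HPS1-AS1 had 17, 14.7 and 13.4 in miR-376a*A cells against 2.44, 2.99 and 8.46 in control cells, a difference of 0.60 (adjusted p = 0.0467). PPP1R3B-DT had 13, 10.9 and 15.9 in miR-376a*A cells against 2.02, 8.78 and 6.32 in control cells, a difference of 0.44 (adjusted p = 0.0473). ZNF22-AS1 had 13.7, 12.9 and 11.9 in miR-376a*G cells against 4.96, 5.72 and 6.1 in control cells, a difference of 0.42 (adjusted p = 0.00255). Groups of 3 arrays are too small for a test of outlying arrays.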

How the results depend on the processing

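The shares of all features that passed under the alternatives are not given here, so the counts below do not set the members apart from the array. With array weights, whose fit did not converge, counts rose to 131 (87 higher, 44 lower) with miR-376a*A, 142 (76 and 66) with miR-376a*G and 89 (56 and 33) between the forms. Control array 3 had a weight of 6.596, against 0.197 and 0.408 for control arrays 1 and 2. Under the weights the partners numbered 182, 193 and 138, the other long non-coding genes 94, 101 and 82, and the degradation genes 18, 18 and 15. Without a filter on dim probe sets, 30 members (20 higher) passed with miR-376a*A and 28 (16 higher) between the forms, and 29 other long non-coding genes with miR-376a*G. With 2 groups in the fit, 22 members were higher with miR-376a*A, and between the forms 30 were lower, with 125 partners and 16 degradation genes.

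Leaving out 1 array at a time, members that passed numbered 25 to 54 with miR-376a*A (15 to 38 higher, 9 to 17 lower), 54 to 83 with miR-376a*G (31 to 58 and 18 to 27) and 28 to 65 between the forms (18 to 34 and 9 to 31). Partners numbered 70 to 115, 79 to 130 and 55 to 118, other long non-coding genes 25 to 41, 25 to 44 and 23 to 57, and degradation genes 7 to 13, 8 to 13 and 3 to 15. With the replicate block, 44, 82 and 43 members passed. GARS1-DT turned to 0.08 between the forms on the mean of its probe sets. Over all results and alternatives, 3423 values kept direction and side of the threshold, 69 passed newly, 164 no longer passed and 1 reversed. The causes were not tested. Signal over background was not assessed, as no detection calls were used.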
